A study of Homo sapiens with 6 samples.

Results

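Splicing factors, RNA helicases and ribosome biogenesis genes were described here in SH-SY5Y cells given methamphetamine (METH). The members were the rows of the deposited table whose gene names begin with HNRNP, SRSF, SF3A, SF3B, SNRP, DDX, DHX, RBM, PRPF, LSM, NOP, UTP, NOL, RRP, BOP1, POLR1, CPSF, CSTF, EXOSC or NXF, without antisense genes and pseudogenes, which gave 49 of the 4101 genes. Of the 53 rows that matched by name, NOP14-AS1, RBM26-AS1, HNRNPA1P7 and DDX12P were left out. DDX12P, whose name carries a P without a number, was left out because it is annotated as a pseudogene. In GENCODE release 29, 248 protein-coding genes carry such names, and those outside the table were not analysed here. SH-SY5Y is a human neuroblastoma line, itself a subclone of another line, and is used as a model of dopaminergic cells. All 6 libraries came from wild-type cells, 3 from cultures given 2 mM METH, a psychostimulant, for 24 h and 3 from cultures given the same volume of PBS. The sample labels also carry the entry day 0, which they do not explain.

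Pre-mRNA is spliced by the spliceosome, a machine built from small nuclear ribonucleoproteins (snRNPs) and remodelled by DEAD-box and DEAH-box RNA helicases. SR proteins, named for domains rich in serine and arginine, mostly favour the use of an exon, and hnRNP proteins coat nascent RNA and often oppose them. Ribosome biogenesis starts in the nucleolus, where RNA polymerase I transcribes ribosomal RNA that is then modified and cut with the help of small nucleolar RNAs. Cleavage and polyadenylation factors form the 3′ end of messenger RNA, NXF1 carries it to the cytoplasm, and the exosome degrades or trims RNA.

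The values are CPM, reads scaled to a common library total, although the authors headed the columns FPKM, and each value stood for a whole number of reads. Library totals were 85.7 to 111 M reads, and the lowest value among the 49 genes rested on 119 reads (UTP20). The PBS columns are numbered 10 to 12, and values per library are given in the order PBS 10, PBS 11, PBS 12 and METH 1, METH 2, METH 3 (n = 3 per group). Differences were tested by limma on log2(CPM + 0.1) across all 4101 genes, and genes passed at an adjusted p-value under 0.1, the cutoff used in the paper. All 4101 rows were marked significant by the authors, so the table was selected on this same comparison and adjustment within it is lenient: 69.1% of its genes passed, up to an unadjusted p-value of 0.0691. Of the 12 sympathoadrenal markers looked up, 5 were in the table and all were detected, among them GATA2 at 441 ± 57.1 CPM with PBS (SD, n = 3). Of 6 markers of glia, stroma and blood, only DCN was in the table, at 15.1 ± 1.48 CPM in the PBS-treatment group and 26.9 ± 2.47 CPM in the METH-treatment group (SD, n = 3), and its part in the results below was not tested. In bulk RNA, fewer cells of a type and less RNA per cell cannot be told apart.

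Most of these RNA-processing genes were lower in the METH-treatment group. Of the 49, 29 were down-regulated and 6 were up-regulated past the threshold, and 14 did not pass. By the same test 35.8% of all genes were down-regulated and 33.3% were up-regulated. The log2 fold change was negative in 41 of the 49 genes, against 49.6% of all genes, and its median was -0.56 against 0.11 in all genes. In 25 genes all METH libraries lay below all PBS libraries (33.0% of all genes), and in 7 all lay above (31.0%). Summed over the 49 genes, expression was 2918 ± 295 CPM in the PBS-treatment group and 2141 ± 138 CPM in the METH-treatment group (SD, n = 3). By role, the summed levels with PBS and METH were 785 ± 103 and 492 ± 24.6 CPM for HNRNP genes, 196 ± 40.9 and 130.5 ± 15.7 CPM for helicases, 358 ± 19.3 and 232 ± 14.1 CPM for RBM genes and 148 ± 22.7 and 113 ± 19.8 CPM for snRNP genes. They differed by less than the larger SD for nucleolar genes (684 ± 89.2 and 674 ± 98.6 CPM, with NOP10 the largest term) and for the genes of 3′ ends, decay and export (68.6 ± 8.78 and 76.7 ± 7.39 CPM, with NXF1 the largest). The changes were moderate, from -1.31 (RBM3) to 0.80 (NXF1) on the log2 scale, where all genes ran from -3.20 to 5.48. The count of 41 negative genes was also found under each other scaling, tool, filter, value added before log2 or omitted library tried. Genes selected on this same comparison are unlikely to change sign, so this is a weak check.

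**Figure D1:**
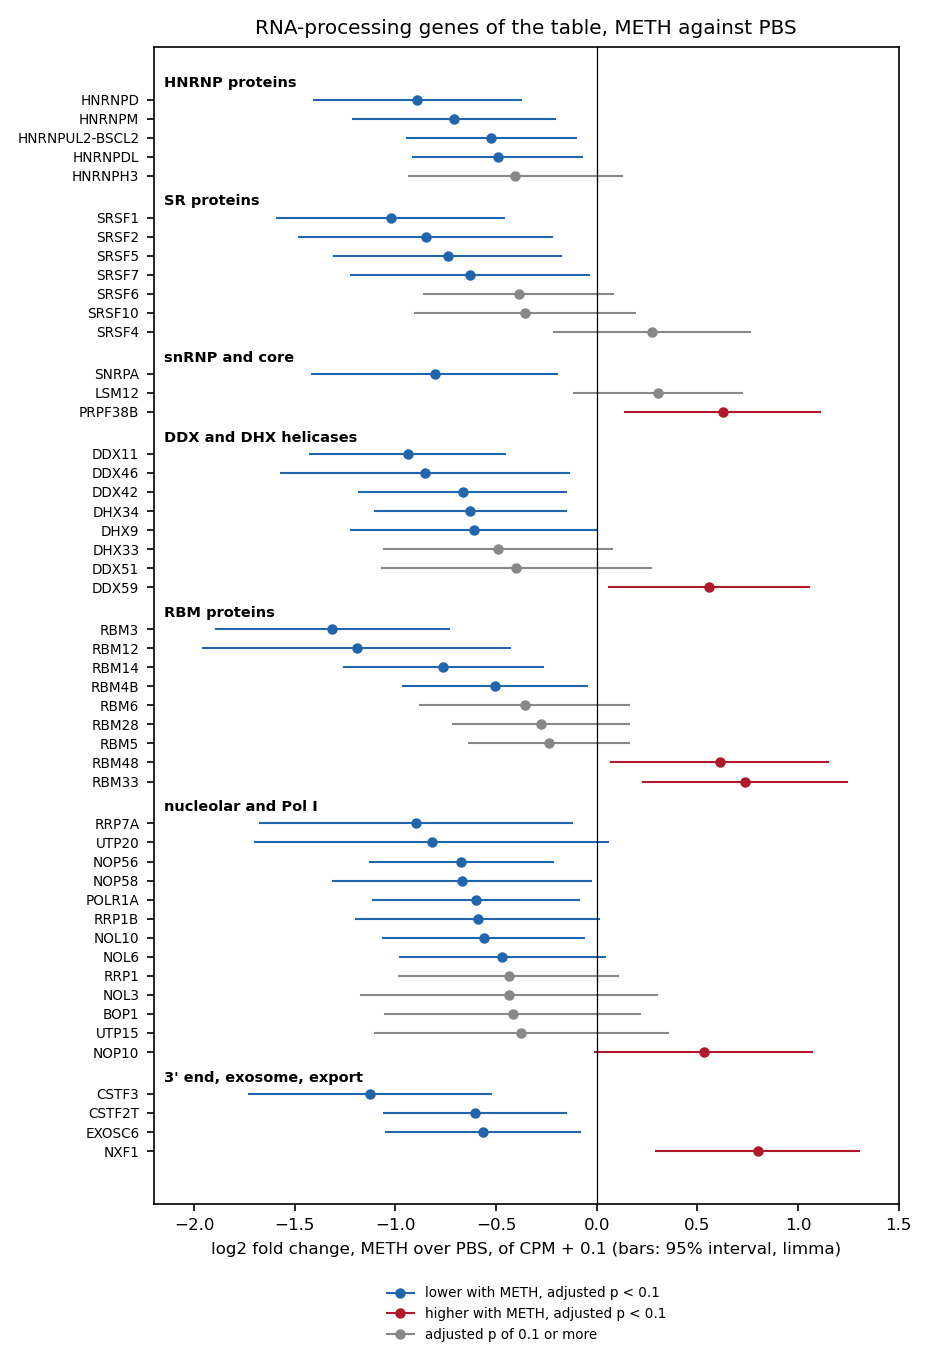
Log2 fold change, METH over PBS, of each of the 49 genes with its 95% interval from limma (x axis), grouped by role (y axis); blue points passed the threshold with lower levels under METH, red points with higher levels, and grey points did not pass. The 29 blue points outnumber the 6 red ones, and the blue or red bars of DHX9, NOL6, NOP10, RRP1B and UTP20 still cross 0.

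The number of calls depended on single libraries, while the direction did not. All genes of the table had been selected on this same comparison, so a change of direction was unlikely when 1 library was omitted. Without METH 2, 6 genes were called down-regulated and 0 up-regulated by limma, with 10 and 3 at an unadjusted p-value under 0.05. The down-regulated share of the 49 was then 12.2%, against 13.7% of all genes, of which 10.0% were up-regulated, so that it was no higher than in the table at large. Without METH 1 the counts were 10 and 0, with 14 and 3 unadjusted, a down-regulated share of 20.4% against 15.3% of all genes (491 of the 4101 were up-regulated). Without PBS 12 they were 13 and 2, a down-regulated share of 26.5% against 20.8% (up-regulated 18.2%). The other omissions left 24 to 31 down-regulated and 5 or 6 up-regulated genes. Of all 4101 genes, 1233 were down-regulated and 1015 up-regulated without PBS 10. Without PBS 11 these counts over all genes were 1368 and 1551, and without METH 3 they were 1144 and 1329. The 29 calls lost without METH 2 had limma adjusted p-values of 0.108 to 0.231 there, and the 25 lost without METH 1 had 0.101 to 0.243. All 35 genes that passed with 6 libraries had the same direction in each of these fits. RBM3, RBM12, CSTF3, SRSF1, DDX11 and HNRNPD, all lower with METH, passed in all 6 of these fits. Adjusted as though 20000 genes had been tested, 2 of the 49 passed, RBM3 (limma adjusted p = 0.0591) and DDX11 (limma adjusted p = 0.0920), where 4.66% of all genes were down-regulated by that rule. On the reads recovered from the CPM steps, edgeR's quasi-likelihood test called 33 down-regulated and 6 up-regulated genes, against 39.9% and 28.4% of all genes. An exact permutation test of 1 gene with 3 libraries against 3 cannot give a 2-sided p-value below 0.1.

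**Figure D2:**
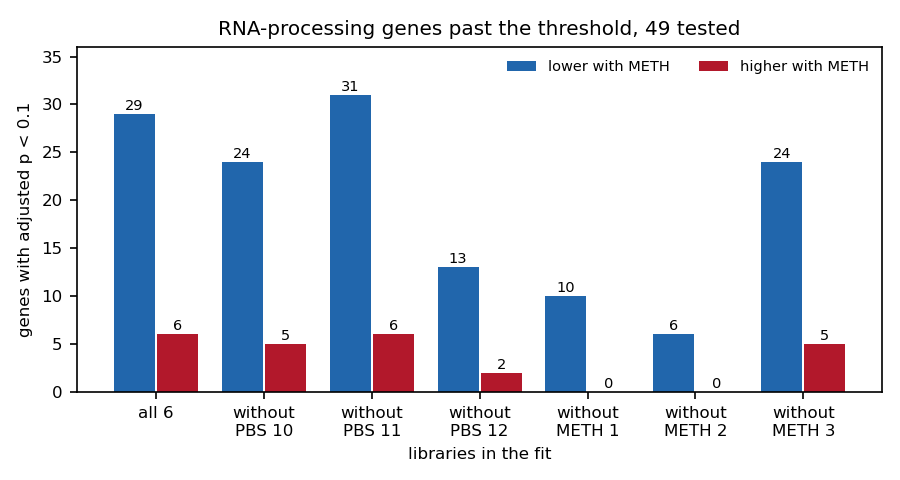
Number of the 49 genes past the threshold (y axis) as down-regulated (blue) or up-regulated (red) with METH, with all 6 libraries and with each library left out (x axis). The down-regulated count stands at 29 with all libraries and at 13, 10 and 6 without PBS 12, METH 1 and METH 2.

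The 4 largest decreases were those of RBM3, RBM12, CSTF3 and SRSF1, and their promoters are printed because these genes carry the largest of the shared decreases. The sequences come from RefSeq on GRCh38.p14, run 5′ to 3′ from 250 bases before the gene's start, and end at most 10 bases into the first exon of the same gene that GENCODE places in that window: chrX:48574234-48574458 (plus strand) for RBM3, chr20:35664947-35665150 (minus strand) for RBM12, chr11:33161522-33161730 (minus strand) for CSTF3 and chr17:58007337-58007496 (minus strand) for SRSF1. In CSTF3 the stretch lies inside the annotated span of the gene, which begins farther upstream in GENCODE than in RefSeq. Capitals mark matches, on either strand, to 3 short motifs: the E-box CACGTG, the half-site TGACGT of the cAMP response element, and the ETS site CCGGAAG.
RBM3: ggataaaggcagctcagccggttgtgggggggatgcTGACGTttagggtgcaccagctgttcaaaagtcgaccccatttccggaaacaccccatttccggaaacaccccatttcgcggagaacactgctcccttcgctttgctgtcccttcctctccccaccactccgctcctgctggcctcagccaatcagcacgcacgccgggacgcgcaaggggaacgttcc
RBM12: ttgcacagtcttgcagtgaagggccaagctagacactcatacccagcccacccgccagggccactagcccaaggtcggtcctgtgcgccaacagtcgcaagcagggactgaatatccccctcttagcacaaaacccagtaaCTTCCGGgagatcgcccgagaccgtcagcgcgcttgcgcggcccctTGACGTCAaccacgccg
CSTF3: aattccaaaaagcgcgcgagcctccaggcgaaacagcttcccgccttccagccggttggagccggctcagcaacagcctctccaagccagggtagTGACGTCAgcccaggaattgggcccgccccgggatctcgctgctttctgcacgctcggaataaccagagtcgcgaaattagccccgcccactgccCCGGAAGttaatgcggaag
SRSF1: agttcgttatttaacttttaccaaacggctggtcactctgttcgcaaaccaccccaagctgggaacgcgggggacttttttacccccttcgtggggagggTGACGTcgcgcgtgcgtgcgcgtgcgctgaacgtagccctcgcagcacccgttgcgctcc
Promoters of 42 of the 49 genes were matched, and BOP1, DHX33, NOL10, NOP58, RBM48, RRP1B and SRSF2 had none in the table used. All 4 of those printed hold the half-site, at positions -214 to -209 from the start in RBM3 and -150 to -145 in SRSF1. In RBM12 and CSTF3 matches on both strands overlap, so that the letters read TGACGTCA, the full element. That full element was in 4 of 42 promoters (9.52%), against 1.77% of all promoters and 3.45% of those of the deposited table, and the other holders were DDX51 and RRP1. The half-site was in 9 of the 42 (21.4%), against 7.42% of all 27305 promoters of that length and 10.6% of the 2810 promoters of genes in the deposited table. Its other holders were DDX51, RRP1, NOP10, NXF1 and SRSF5, of which NXF1 and NOP10 were up-regulated and SRSF5 was down-regulated. The E-box was in 7 of 42 (16.7%, against 6.49% of all promoters and 9.0% of those of the deposited table), and the ETS site in 9 (21.4%, against 8.82% and 13.0%). Some matches before the RefSeq start lie inside the GENCODE span of the same gene, among them the E-boxes of HNRNPD, HNRNPDL, HNRNPH3 and HNRNPM. A match describes letters only, and binding was not measured.

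RBM proteins share an RNA-recognition motif and differ in what they do. Of the 38 annotated RBM genes 9 were in the table. Of these, 4 were down-regulated (44.4%, against 35.8% of all genes), 2 were up-regulated (22.2%, against 33.3%) and 3 did not pass. RBM3, a protein induced by cold that binds messenger RNA, had the largest decrease of the 49 (ENSG00000102317, chromosome X, 48574449 to 48579066, plus strand). RBM3 was at 111, 158 and 154 CPM with PBS and at 74.04, 55.7 and 42.4 CPM with METH, so that the groups did not overlap (log2 fold change -1.31, SE 0.257, limma adjusted p = 0.0121). RBM12 was at 42.8, 20.3 and 33.3 CPM with PBS and at 9.31, 13.4 and 19.2 CPM with METH (log2 fold change -1.19, SE 0.338, limma adjusted p = 0.0306). PBS 11 was the lowest PBS library and METH 1 the lowest METH library, and the groups did not overlap. RBM12 (ENSG00000244462, chromosome 20, 35648925 to 35664956, minus strand) shares its span and strand with CPNE1, which did not pass (0.53 on the log2 scale), so that reads of both genes may be mixed. Whether reads were counted by strand is not given in the sources used here, so genes that overlap on opposite strands may share reads as well. RBM14 was at 37.7, 37.1 and 56.3 CPM with PBS and at 26.6, 24.5 and 24.7 CPM with METH (log2 fold change -0.76, SE 0.219, limma adjusted p = 0.0319). RBM14, a paraspeckle component and transcription coactivator, was low and tight in the METH libraries, and PBS 12 stood above the other libraries. RBM4B, a splicing regulator, was also down-regulated (log2 fold change -0.50, SE 0.203, limma adjusted p = 0.0693). The call of RBM14 was lost without METH 2 and that of RBM4B without PBS 10, METH 1 or METH 2 (log2 fold changes over the 6 fits with a library omitted -0.87 to -0.57 and -0.58 to -0.42).

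The 2 RBM genes that rose were RBM33 and RBM48. RBM33 was at 16.00, 23.4 and 16.4 CPM with PBS and at 34.4, 31.4 and 26.5 CPM with METH, with no overlap (log2 fold change 0.74, SE 0.225, limma adjusted p = 0.0364). RBM48, a factor of minor intron splicing, had smaller values, from 6.80 to 10.9 CPM with PBS and 12.2 to 14.1 CPM with METH (log2 fold change 0.61, SE 0.239, limma adjusted p = 0.0652). Both calls were lost without METH 1 or METH 2, and that of RBM48 also without PBS 12 (0.64 to 0.91 and 0.46 to 0.80). RBM28 is a nucleolar protein that works in ribosome biogenesis and is also found with spliceosomal snRNPs. Its gene (ENSG00000106344, chromosome 7, 128297685 to 128343908, minus strand) lies 89741 bases from MIR129-1, the microRNA gene the study turns on. RBM28 was at 40.5, 30.7 and 38.04 CPM with PBS and at 30.7, 28.00 and 30.9 CPM with METH. METH 1 and METH 3 lay just above PBS 11, so that the groups overlapped and the difference did not pass (log2 fold change -0.28, 95% interval -0.72 to 0.16, limma adjusted p = 0.205). RBM5 and RBM6, splicing regulators that overlap each other on the same strand, did not pass either (-0.24 and -0.36 on the log2 scale, limma adjusted p = 0.222 and 0.173). In RBM5 all METH libraries were nevertheless below all PBS libraries, at 31.3 to 33.7 against 37.6 to 38.8 CPM.

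SR genes were mostly lower with METH. Of the 12 annotated SRSF genes 7 were in the table, of which 4 were down-regulated (57.1%, against 35.8% of all genes) and 3 did not pass. By limma 0 were up-regulated, against 33.3% of all genes (0 at an unadjusted p-value under 0.05 and 0 by edgeR). Summed over the 7, the level was 679.8 ± 163 CPM in the PBS-treatment group and 423 ± 8.19 CPM in the METH-treatment group (SD, n = 3). SRSF1 was at 165, 94.1 and 127 CPM with PBS and at 54.2, 58.6 and 73.5 CPM with METH (log2 fold change -1.02, SE 0.250, limma adjusted p = 0.0220). SRSF1, an essential activator of splicing (ENSG00000136450, chromosome 17, 58003360 to 58007346, minus strand), thus had each METH library below each PBS library, and PBS 10 was the highest. SRSF2 was at 236, 143 and 297 CPM with PBS and at 119, 128 and 112 CPM with METH (log2 fold change -0.85, SE 0.279, limma adjusted p = 0.0432). SRSF2, known as SC35 and a marker of nuclear speckles, was the most abundant SR gene per length, at 57.2 CPM per kb of exon over the 6 libraries, and its PBS values differed from each other by more than the METH values did. It overlaps MFSD11 on the other strand, which was higher with METH (log2 fold change 0.52, limma adjusted p = 0.0747). SRSF5 was at 142, 76.9 and 110.2 CPM with PBS and at 60.3, 60.1 and 71.1 CPM with METH (log2 fold change -0.74, SE 0.250, limma adjusted p = 0.0462). PBS 11 came close to METH 3 in SRSF5, without overlap. The calls of SRSF2 and SRSF5 were lost without METH 1, METH 2 or PBS 12 (log2 fold changes over the 6 fits -1.15 to -0.62 and -0.98 to -0.53).

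The other SR genes overlapped or did not pass. SRSF7, which also couples splicing to export, was called down-regulated (-0.63 on the log2 scale, limma adjusted p = 0.0744), with PBS 11 at 56.4 CPM below METH 1 at 58.4 CPM. It kept the call in 1 of the 6 fits with a library omitted, that without PBS 11 (log2 fold changes -0.90 to -0.40). SRSF6 was lower in each METH library than in each PBS library but did not pass (log2 fold change -0.39, limma adjusted p = 0.122). SRSF10, a splicing repressor when dephosphorylated, did not pass (log2 fold change -0.36, limma adjusted p = 0.193). SRSF4 was at 46.8, 59.5 and 59.01 CPM with PBS and at 81.7, 63.7 and 55.9 CPM with METH. SRSF4 was the 1 SR gene with a positive log2 fold change (0.27, 95% interval -0.21 to 0.76, limma adjusted p = 0.250), with METH 3 among the PBS values.

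**Figure D3:**
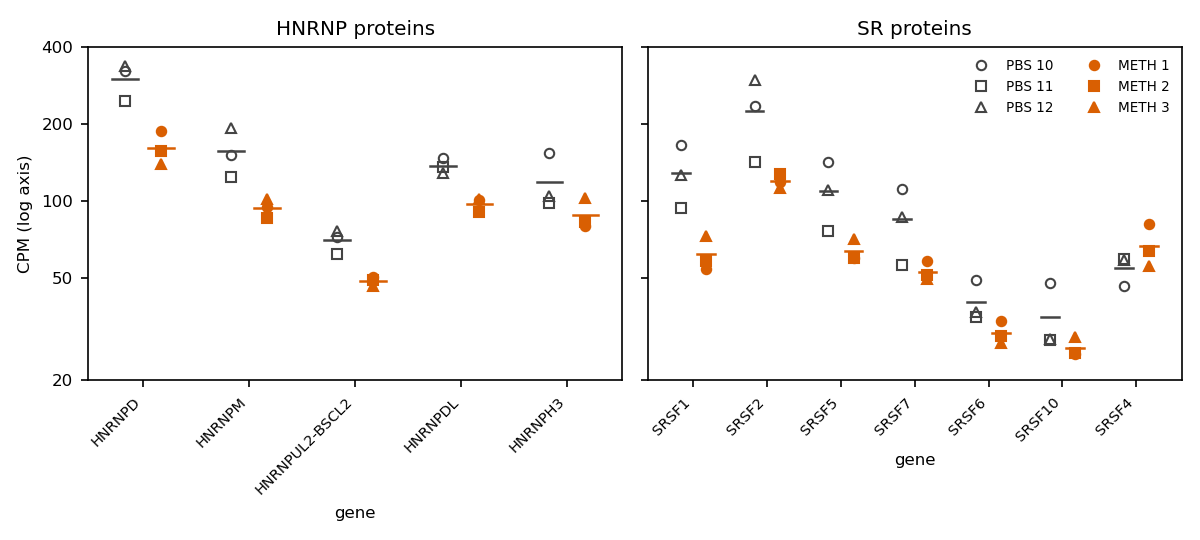
CPM on a log axis (y) of the 5 HNRNP genes and the 7 SR genes (x), 1 symbol per library (open for PBS, filled for METH) with a bar at each group mean. METH symbols (orange) lie below PBS symbols in 4 HNRNP genes and in SRSF1, SRSF2, SRSF5 and SRSF6, and among or above them in SRSF4.

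All 5 HNRNP genes had negative log2 fold changes, as did 49.6% of all genes. Of the 5, 4 passed the threshold as down-regulated, against 35.8% of all genes. HNRNPD was at 321, 246 and 336 CPM with PBS and at 189, 158 and 139.8 CPM with METH (log2 fold change -0.89, SE 0.228, limma adjusted p = 0.0241). HNRNPD, also called AUF1, binds AU-rich elements and directs the decay of messenger RNA. HNRNPD was the most abundant of the 5 per exonic length, at 33.2 CPM per kb (ENSG00000138668, chromosome 4, 82352498 to 82374503, minus strand). Its paralog HNRNPDL lies close by on the same chromosome and strand. HNRNPDL was at 147, 136 and 129 CPM with PBS and at 101, 90.6 and 102 CPM with METH (log2 fold change -0.49, SE 0.187, limma adjusted p = 0.0609). HNRNPDL values were even within each group, and METH 1 and METH 3 differed little. HNRNPM was at 152, 124 and 194 CPM with PBS and at 95.3, 85.8 and 102 CPM with METH (log2 fold change -0.71, SE 0.223, limma adjusted p = 0.0390). HNRNPM, a splicing regulator, was highest in PBS 12, and all METH libraries lay below all PBS libraries. HNRNPUL2-BSCL2 is a read-through of HNRNPUL2 into BSCL2, and its reads cannot be told apart from theirs. HNRNPUL2-BSCL2 was at 72.8, 62.04 and 76.8 CPM with PBS and at 50.8, 49.2 and 46.6 CPM with METH (log2 fold change -0.52, SE 0.186, limma adjusted p = 0.0525). BSCL2 itself did not pass (0.57 on the log2 scale), and GNG3, within the span on the other strand, was up-regulated (0.84, limma adjusted p = 0.0735). HNRNPH3 did not pass, with METH 3 above PBS 11 (log2 fold change -0.40, limma adjusted p = 0.141), and it overlaps PBLD on the other strand, which was down-regulated (-1.09, limma adjusted p = 0.0761). The calls of HNRNPM, HNRNPDL and HNRNPUL2-BSCL2 were lost without METH 1 or without METH 2, those of HNRNPM and HNRNPUL2-BSCL2 also without PBS 12, and that of HNRNPUL2-BSCL2 without METH 3. Their log2 fold changes over the 6 fits were -0.86 to -0.54, -0.54 to -0.44 and -0.61 to -0.46.

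Of the 55 annotated helicase genes 8 were in the table. Of these, 5 were down-regulated (62.5%, against 35.8% of all genes), 1 was up-regulated (12.5%, against 33.3%) and 2 did not pass. DDX46 was at 22.96, 11.5 and 11.04 CPM with PBS and at 6.47, 7.68 and 9.77 CPM with METH (log2 fold change -0.85, SE 0.318, limma adjusted p = 0.0584). DDX46, the counterpart of yeast Prp5, acts when the U2 snRNP joins the branch point. PBS 10 was far above the rest. DDX42 was at 66.8, 48.4 and 46.9 CPM with PBS and at 28.1, 33.00 and 40.8 CPM with METH (log2 fold change -0.67, SE 0.228, limma adjusted p = 0.0481). DDX42, a partner of the U2 component SF3B1, had METH 3 close below PBS 12. DHX34 was at 11.4, 13.4 and 15.02 CPM with PBS and at 8.72, 8.06 and 8.73 CPM with METH (log2 fold change -0.63, SE 0.211, limma adjusted p = 0.0455). DHX34, a factor of nonsense-mediated decay, was even within the METH group. DHX9 was at 95.1, 49.1 and 60.6 CPM with PBS and at 38.8, 39.03 and 52.6 CPM with METH (log2 fold change -0.61, SE 0.271, limma adjusted p = 0.0841). DHX9, also called RNA helicase A, was the most abundant helicase of the 8 per length, at 9.90 CPM per kb, and METH 3 lay above PBS 11, so that the groups overlapped. All 4 of these calls were lost without METH 1 or without METH 2, those of DDX46 and DHX9 also without PBS 10, and those of DHX34 and DHX9 without PBS 12. The log2 fold changes over the 6 fits were -1.04 to -0.51 in DDX46, -0.81 to -0.50 in DDX42, -0.73 to -0.54 in DHX34 and -0.82 to -0.34 in DHX9. DHX9 also did not pass with limma without a trend.

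DDX11 had the largest decrease among the helicases, but it is a DNA helicase of sister chromatid cohesion rather than an RNA helicase. DDX11 was at 14.7, 15.9 and 16.9 CPM with PBS and at 9.64, 8.09 and 7.07 CPM with METH (log2 fold change -0.94, SE 0.214, limma adjusted p = 0.0189). The groups were well apart. DDX12P, a pseudogene nearly identical to DDX11, was also lower (2.51 ± 0.400 against 1.04 ± 0.168 CPM, SD, n = 3, limma adjusted p = 0.0210), and how reads were split between them is uncertain. DDX59 rose, with values from 8.19 to 10.8 CPM with PBS and from 12.05 to 15.9 CPM with METH (log2 fold change 0.56, SE 0.221, limma adjusted p = 0.0676), and its call was lost without PBS 12 or any METH library (0.45 to 0.67). DHX33 and DDX51, both with roles in ribosome production, did not pass (log2 fold changes -0.49 and -0.40, limma adjusted p = 0.110 and 0.224).

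The snRNP and spliceosome core group held only 3 of its 47 annotated genes, and they did not move together. SNRPA was at 82.97, 123 and 123 CPM with PBS and at 78.7, 67.7 and 44.4 CPM with METH (log2 fold change -0.81, SE 0.271, limma adjusted p = 0.0459). SNRPA encodes a protein of the U1 snRNP, which recognizes the 5′ splice site, and METH 1 was the METH library closest to PBS 10. It was the most abundant of the 3 per length (36.7 CPM per kb). PRPF38B was at 11.5, 9.62 and 8.50 CPM with PBS and at 16.9, 13.9 and 14.9 CPM with METH (log2 fold change 0.63, SE 0.215, limma adjusted p = 0.0482). PRPF38B, related to a yeast factor of spliceosome activation, was thus up-regulated without overlap. Both calls were lost without METH 2 or without PBS 12, that of SNRPA also without METH 3 and that of PRPF38B without METH 1 (log2 fold change of PRPF38B over the 6 fits 0.52 to 0.74). LSM12 was higher in each METH library (32.5 to 35.3 against 25.3 to 30.8 CPM) and did not pass (log2 fold change 0.30, limma adjusted p = 0.156). It is not one of the Sm-like ring proteins of the U6 snRNP.

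Nucleolar and RNA polymerase I genes formed the largest group, with 13 of its 43 annotated genes in the table. Of these, 8 were down-regulated (61.5%, against 35.8% of all genes), 1 was up-regulated (7.69%, against 33.3%) and 4 did not pass. NOP56 and NOP58 are the paired core proteins of box C/D snoRNPs, which guide methylation of ribosomal RNA. NOP56 was at 109, 90.8 and 117 CPM with PBS and at 73.2, 68.1 and 57.1 CPM with METH (log2 fold change -0.67, SE 0.202, limma adjusted p = 0.0354). NOP56 was lower in every METH library, and small nucleolar RNA genes lie in its introns. The call of NOP56 was lost without METH 2 (-0.78 to -0.57 over the 6 fits). NOP58 was called with METH 3 above PBS 12 (log2 fold change -0.67, SE 0.285, limma adjusted p = 0.0772), and without PBS 10, METH 1 or METH 2 the call was lost (log2 fold changes over the 6 fits -0.85 to -0.39). POLR1A encodes the largest subunit of RNA polymerase I. POLR1A was at 15.6, 11.9 and 17.5 CPM with PBS and at 9.12, 9.31 and 10.9 CPM with METH (log2 fold change -0.60, SE 0.227, limma adjusted p = 0.0609). METH 3 lay nearest to the PBS libraries, without overlap, and the call of POLR1A was lost without METH 1, METH 2 or PBS 12 (-0.76 to -0.48).

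Factors of the small subunit processome, which makes the first cuts in ribosomal RNA, had negative log2 fold changes with a varied spread. NOL10 was at 23.3, 18.3 and 18.2 CPM with PBS and at 12.7, 11.6 and 16.2 CPM with METH (log2 fold change -0.56, SE 0.222, limma adjusted p = 0.0670). NOL10 did not overlap between the groups, and neither did NOL6 (log2 fold change -0.47, SE 0.226, limma adjusted p = 0.0988). RRP7A and UTP20 passed with overlapping groups (log2 fold changes -0.90 and -0.82, limma adjusted p = 0.0620 and 0.0957). RRP7A was at 15.1, 28.6 and 34.5 CPM with PBS and at 18.1, 13.2 and 9.60 CPM with METH. PBS 10 thus lay below METH 1, while in UTP20, the least abundant gene of the 49 per length, PBS 10 was the highest library at 5.02 CPM and PBS 11 at 2.06 CPM lay below METH 3 at 2.63 CPM. In each of these 4 genes leaving out METH 2 or PBS 12 ended the call (log2 fold changes over the 6 fits -0.70 to -0.44, -0.58 to -0.31, -1.25 to -0.65 and -1.11 to -0.49). The calls of NOL10, NOL6 and UTP20 were also lost without METH 1, and those of NOL10 and UTP20 without PBS 10. Those of NOL6 and RRP7A were also lost without METH 3 or without PBS 11. NOL6 also did not pass with limma without a trend, nor UTP20 with median-ratio scaling. UTP15 did not pass (-0.37, limma adjusted p = 0.288).

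The paralogs RRP1B and RRP1, on chromosome 21, had similar estimates (-0.59 and -0.44 on the log2 scale). RRP1B passed and RRP1 did not (limma adjusted p = 0.0868 and 0.129), and the difference between them was not tested. The call of RRP1B was lost without PBS 10, PBS 12, METH 1 or METH 2 (-0.86 to -0.45) and with limma without a trend. BOP1, of the complex that matures the large subunit, did not pass (-0.42, 95% interval -1.05 to 0.21, limma adjusted p = 0.187). NOL3 is named as a nucleolar protein but is known as ARC, a repressor of apoptosis with a caspase recruitment domain. NOL3 was at 36.1, 83.1 and 69.03 CPM with PBS and at 53.01, 48.1 and 32.9 CPM with METH. PBS 10 and METH 3 were its low libraries, the groups overlapped, KIAA0895L overlaps it on the other strand (0.41, not passed), and it did not pass (-0.43, 95% interval -1.17 to 0.30, limma adjusted p = 0.229). NOP10, a small protein of the H/ACA snoRNPs that guide pseudouridylation and of telomerase, was the 1 gene of the group that was higher with METH. NOP10 was at 238, 279 and 315 CPM with PBS and at 458, 431 and 321 CPM with METH (log2 fold change 0.53, SE 0.239, limma adjusted p = 0.0861). It was the most abundant of the 49 genes per length (614 CPM per kb), and METH 3 was close above PBS 12. The call of NOP10 was lost without PBS 10, PBS 12, METH 1 or METH 2 (0.43 to 0.69).

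Of the 26 annotated genes for 3′ end formation, decay and export 4 were in the table. Of these, 3 were down-regulated and 1 was up-regulated (75.0% and 25.0%, against 35.8% and 33.3% of all genes). CSTF3 was at 15.7, 10.04 and 14.5 CPM with PBS and at 4.69, 7.21 and 6.30 CPM with METH (log2 fold change -1.13, SE 0.266, limma adjusted p = 0.0206). CSTF3 (ENSG00000176102, chromosome 11, 33077188 to 33162371, minus strand) encodes the scaffold of the cleavage stimulation factor. Each of its METH libraries lay below each of its PBS libraries, with METH 2 nearest to PBS 11. CSTF2T was at 13.9, 12.8 and 15.4 CPM with PBS and at 9.38, 9.03 and 9.02 CPM with METH (log2 fold change -0.61, SE 0.200, limma adjusted p = 0.0441). CSTF2T, a variant of the RNA-binding subunit of the same factor, lies within PRKG1 on the other strand, and PRKG1 was higher with METH (log2 fold change 0.84, limma adjusted p = 0.0395). EXOSC6 was at 8.21, 9.70 and 9.70 CPM with PBS and at 5.98, 6.03 and 6.54 CPM with METH (log2 fold change -0.56, SE 0.214, limma adjusted p = 0.0609). EXOSC6, a ring subunit of the exosome, was even within each group. NXF1, the main export receptor for messenger RNA, had the largest increase of the 49 (ENSG00000162231, chromosome 11, 62792123 to 62806302, minus strand). NXF1 was at 25.9, 30.8 and 39.2 CPM with PBS and at 61.1, 58.4 and 46.3 CPM with METH (log2 fold change 0.80, SE 0.223, limma adjusted p = 0.0299). It was also the most abundant of the 4 per length (7.04 CPM per kb), and METH 3 was the METH library nearest to PBS 12. The call of NXF1 was lost without METH 1 or METH 2, and those of CSTF2T and EXOSC6 without METH 1, METH 2 or PBS 12 (log2 fold changes over the 6 fits 0.66 to 0.96, -0.67 to -0.54 and -0.64 to -0.52).

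**Figure D4:**
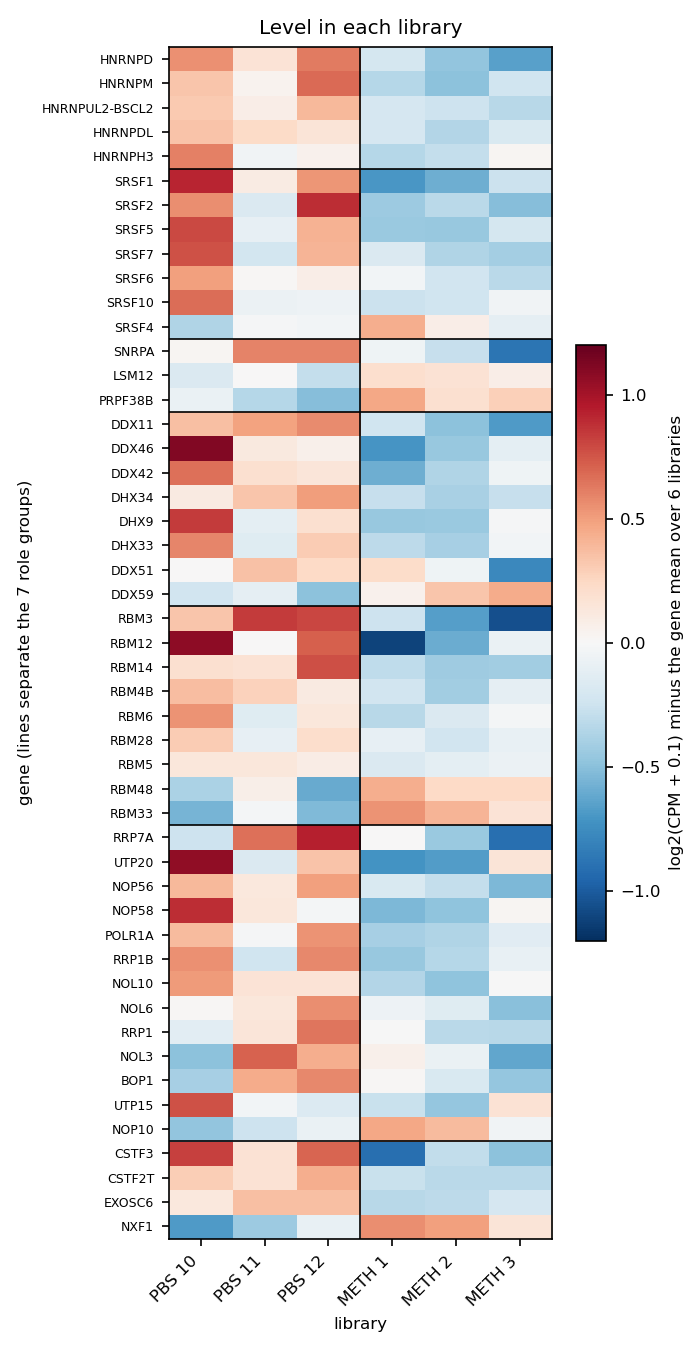
Level of each of the 49 genes (rows, in role groups) in each library (columns), as log2(CPM + 0.1) minus the mean of the gene over the 6 libraries; red is above and blue below that mean. Rows are mostly red on the PBS side and blue on the METH side, with the darkest red often in PBS 10, the highest of the 6 libraries in 20 genes.

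Libraries of a group differed from each other in these genes. PBS 10 was the highest PBS library in 21 of the 49 genes and the lowest in 15, and PBS 11 was the lowest in 22. METH 3 was the highest METH library in 24 genes and the lowest in 22, while METH 2 was the highest in 2. The median log2 difference of PBS 11 from the other PBS libraries was -0.21 in the 49 genes and 0.11 in all genes. No batch is given in the labels, and the part of handling in these differences was not tested.

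Other genes of the same pathways, taken from lists outside the name rule, moved in both directions. Of the 346 genes listed 74 were in the table. Of these, 31 were down-regulated (41.9%, against 35.8% of all genes), 26 were up-regulated (35.1%, against 33.3%) and 17 did not pass. Their median log2 fold change was -0.43, against 0.11 in all genes. Ribosome biogenesis factors were lower in 9 and higher in 4 of 18 genes (median -0.51), against 35.8% and 33.3% of all genes. MRTO4, an assembly factor of the large subunit, and DKC1, the pseudouridine synthase that works with NOP10, fell (-0.91 and -0.71 on the log2 scale, limma adjusted p = 0.0273 and 0.0288). SBDS and MDN1, which help release assembly factors from the large subunit, rose (0.77 and 1.18, limma adjusted p = 0.0266 and 0.0311). The RNA polymerase I factors UBTF and TCOF1, chosen after their values were seen, were lower as POLR1A was (-0.59 and -0.67, limma adjusted p = 0.0461 and 0.0310). MRTO4 and MDN1 passed in all 6 fits with a library omitted, DKC1, SBDS and TCOF1 were lost without METH 2, and UBTF was lost without METH 1, METH 2 or PBS 12 (-0.71 to -0.51).

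Spliceosome proteins outside the named families were lower in 6 and higher in 6 of 14 genes (42.9% each, against 35.8% and 33.3% of all genes). CDC5L, a core protein of the Prp19 complex, rose most. CDC5L was at 10.8, 7.64 and 5.73 CPM with PBS and at 17.3, 18.8 and 22.3 CPM with METH (log2 fold change 1.30, SE 0.267, limma adjusted p = 0.0137), and it was the 1 gene of the 74 that passed when adjusted as though 20000 genes had been tested (limma adjusted p = 0.0668). SYF2 also rose (0.63, limma adjusted p = 0.0559), and GEMIN5, which binds snRNAs for snRNP assembly, fell (-0.57, limma adjusted p = 0.0783). Both kept their calls in 2 of the 6 fits with a library omitted (0.47 to 0.83 and -0.76 to -0.47). CWC27 was past the threshold by limma (0.66, 95% interval -0.04 to 1.37, limma adjusted p = 0.0943), but not by edgeR (adjusted p = 0.156), by DESeq2 (adjusted p = 0.114), by limma without a trend or with median-ratio scaling. It kept the call in 2 of the 6 fits with a library omitted, with log2 fold changes of 0.31 to 0.87.

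Splicing regulators were higher in 13 and lower in 10 of 25 genes, with a median of 0.56. Of all genes, 33.3% were higher and 35.8% lower past the threshold, with a median of 0.11. CLK1, a kinase that phosphorylates SR proteins, was among those that rose. CLK1 was at 12.2, 16.5 and 5.27 CPM with PBS and at 25.8, 26.99 and 23.8 CPM with METH (log2 fold change 1.31, SE 0.371, limma adjusted p = 0.0305). The related kinases CLK4, CLK3 and SRPK3, chosen after their values were seen, were also higher (0.95, 0.68 and 0.90, limma adjusted p = 0.0348, 0.0811 and 0.0620), with overlapping groups in CLK3 and SRPK3. CLK1 passed in all 6 fits with a library omitted, with log2 fold changes of 0.84 to 1.66 and the lowest without PBS 12. CLK4 was lost without METH 2, and CLK3 and SRPK3 kept their calls in 2 of those fits (0.44 to 0.93 and 0.73 to 1.19). CCNL1, a cyclin of splicing kinases, and the RNA-binding proteins CELF3 and RBPMS rose as well (0.96, 0.99 and 1.01, limma adjusted p = 0.0289, 0.0254 and 0.0396). CCNL1 and CELF3 passed in all 6 fits with a library omitted and RBPMS in 3 (0.80 to 1.29).

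Factors of 3′ ends, export and decay were lower in 6 and higher in 4 of 18 genes (33.3% and 22.2%), shares no higher than the 35.8% and 33.3% of all genes, and 8 did not pass. UPF1, the central helicase of nonsense-mediated decay, fell. UPF1 was at 38.9, 34.5 and 49.3 CPM with PBS and at 22.1, 19.3 and 24.3 CPM with METH (log2 fold change -0.89, SE 0.212, limma adjusted p = 0.0207). SMG6, the endonuclease of the same pathway, fell with it (-0.64, limma adjusted p = 0.0443). FIP1L1, a polyadenylation factor, and DCP1B, of the decapping complex, rose (0.73 and 0.75, limma adjusted p = 0.0490 and 0.0312). UPF1 passed in all 6 fits with a library omitted, while DCP1B was lost without METH 2 and SMG6 and FIP1L1 without METH 1, METH 2 or PBS 12 (-0.76 to -0.58 in SMG6, 0.60 to 0.95 in FIP1L1). NXT1, the partner of NXF1 and chosen after its values were seen, did not pass (0.50, limma adjusted p = 0.161).

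**Figure D5:**
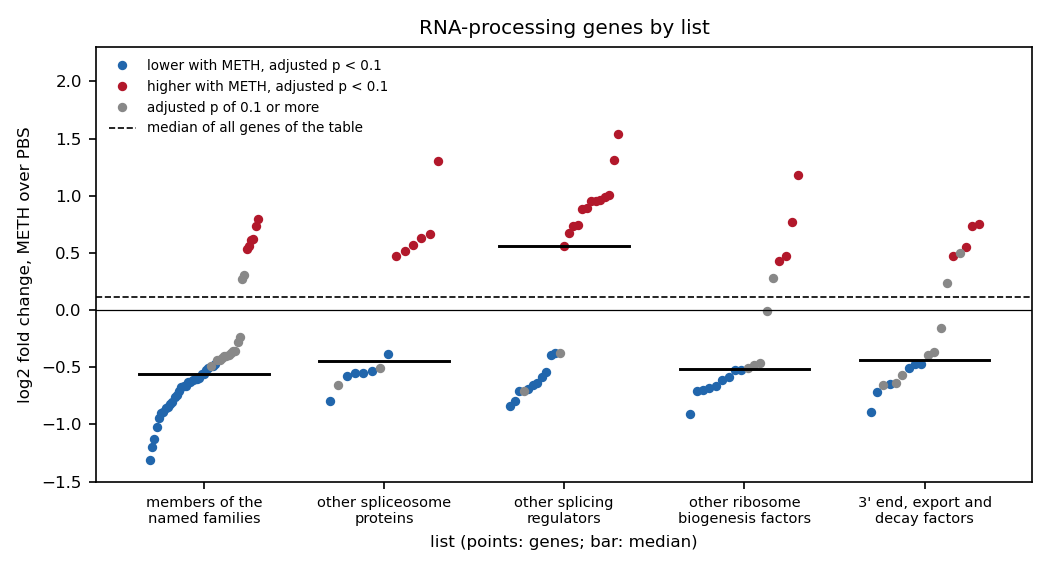
Log2 fold change, METH over PBS (y axis), of the 49 members of the named families and of the 4 lists of other RNA-processing genes (x axis), 1 point per gene in the colours of the threshold, with a bar at each median and a dashed line at the median of all genes (0.11). The medians of the members and of 3 lists lie below 0. That of the splicing regulators lies at 0.56, the smallest positive value of a list with 13 positive and 12 negative genes.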

How the data were processed

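RNA of SH-SY5Y cultures given METH or PBS was sequenced on an Illumina HiSeq. The authors deposited CPM values per library under FPKM headings, group means, and the fold changes and p-values of their DESeq2 comparison, which were not used. The aligner, counter, strand setting and genome build are not given in the sources used here. Whole reads were recovered from the step of each column, and 100% of values up to 300.0 CPM were whole to within 0.0006 CPM. Reads on the listed genes numbered 20027072 to 25449507 per library. Each group was stated to be done in triplicate, without saying whether cultures were separate, so p-values measure the spread between these libraries, which may be technical.

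Groups were compared with limma 3.58.1 in R 4.3.3 (empirical Bayes with a trend) on log2(CPM + 0.1), a scale that understates changes of low genes, with Benjamini-Hochberg adjustment over the 4101 genes. Alternatives were edgeR 4.0.16 and DESeq2 1.42.0 on recovered reads, 1 or 0.01 added before log2, a filter at a mean of 1 CPM, no trend, median-ratio scaling, a threshold of 0.05, adjustment over an assumed 20000 genes, and each library left out. The fits were tested on simulated data. Members, lists and tests were chosen with earlier results of these data known. Values per library are given for RBM28, for the most abundant gene of each role group per exonic length, and for up to 4 genes per group with the largest change past the threshold and no overlap. From each further list up to 4 such genes are named if a group mean reached 1 CPM. The library values of SRSF4, RRP7A, NOL3 and UTP20 and the printed promoters were chosen after the values were seen. Positions, lengths and gene types came from GENCODE release 29 on GRCh38, which holds 4093 of the 4101 identifiers, and promoters from RefSeq. Python 3.11.15, numpy 2.4.6, pandas 2.3.3 and matplotlib 3.10.9 were used.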

Additional observations from a re-analysis of the deposited data

How the results depend on the processing

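No paired analysis was possible because the PBS columns carry the numbers 10 to 12, which match no replicate number of the labels. At a threshold of 0.05, 15 of the 49 genes were down-regulated and 3 up-regulated, and 13 and 15 of the 74 other RNA-processing genes. No count over all genes is given here for that threshold or for unadjusted p-values, so these counts have no background beside them. Adjusted over an assumed 20000 genes, limma gave 2 and 0 of the 49 (25 and 5 at an unadjusted p-value under 0.05) and 0 and 1 of the 74 (25 and 22 unadjusted). Of all 4101 genes, 191 were down-regulated and 219 up-regulated by that rule. Adjusted over the 4101 listed genes, which is a more lenient rule, edgeR gave 33 and 6 of the 49 and 37 and 22 of the 74, and DESeq2 gave 32 and 6 and 39 and 23. Of all 4101 genes, edgeR called 1637 down-regulated and 1163 up-regulated, and DESeq2 called 1653 and 1340. With each library left out, which also leaves fewer samples, the 49 gave 6 to 31 down-regulated and 0 to 6 up-regulated genes, and the 74 gave 2 to 29 and 7 to 25. The lowest counts came without METH 2 (6 and 0 of the 49, 2 and 7 of the 74), and those without METH 1 (10 and 0, 8 and 8) or PBS 12 (13 and 2, 12 and 11) were also more than 1.5-fold below the full counts. Down-regulated and up-regulated counts of all 4101 genes were 563 and 412 without METH 2, 628 and 491 without METH 1, and 854 and 747 without PBS 12. The counts stayed within 1.5-fold under the other values added before log2, the filter, limma without a trend, median-ratio scaling, edgeR and DESeq2. Of 688 values for 43 named genes under 16 alternatives, 552 had the same direction and the same side of the threshold, 136 had the same direction but no longer passed, and 0 reversed. Reversals were unlikely from the start, because the table was selected on this same comparison. Scaling moved the median of all genes by less than 0.1 on the log2 scale.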
